A study of Drosophila melanogaster with 6 samples.

Results

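The Torso and MAP kinase terminal pathway was followed through 9 genes: tsl, trk, tor, csw, Sos, Ras85D, Dsor1, rl and cic. The genes were chosen for their known roles, and a probe set was assigned to one of them when the platform annotation gave that gene symbol and no other. Such probe sets existed for 7 of the 9 genes. They numbered 8 of the 18769 probe sets tested, 1 for each gene and 2 for cic. Ras85D, the Ras GTPase of the cascade, and rl, its MAP kinase, had no probe set of this kind and were not analysed here. Levels are log2 expression values made by the authors with RMA, which corrects background, equalizes the arrays and combines the probes of a set. Because probe sets differ in their response, differences in level are taken across arrays of the same probe set. Levels of different probe sets were compared only to rank them by brightness.

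The brakeless group consisted of embryos from females of genotype FRT2R G13 bks278/FRT2R G13 ovoD1, mated to FRT2R G13 bks278/CyO males, CyO being a balancer chromosome. In the control group the parents were FRT2R G13/FRT2R G13 ovoD1 females and FRT2R G13 males, so both groups shared the FRT2R G13 chromosome and the dominant sterile ovoD1 selection. In both groups the mother's germ line was clonal, and in the brakeless group it lacked normal brakeless (gene symbol sbb), which encodes a nuclear transcriptional co-regulator. Fathers of the brakeless group were heterozygous, so zygotic sbb differed among the embryos of 1 pool. Embryos were 2 to 4 h old, were collected at 25 °C and were pooled whole. Each group had 3 arrays, labelled as biological replicates. In RNA from whole pooled embryos, fewer cells of a type and less RNA per cell cannot be told apart, and the place of expression is not seen.

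The terminal pathway patterns the unsegmented ends of the Drosophila embryo. Torso-like, made by follicle cells at the ends of the egg chamber, allows the ligand Trunk to act locally on Torso, a receptor tyrosine kinase that is spread over the whole egg membrane. Torso then signals through Corkscrew, the Ras activator Son of sevenless, Ras, Raf, the MAP kinase kinase Dsor1 and the MAP kinase Rolled. The kinase inactivates the repressor Capicua at the poles, which frees the terminal gap genes tll and hkb from repression. Most of these parts are known to be supplied by the mother as RNA or protein, and their activity is controlled largely by phosphorylation, which these arrays do not measure.

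The median level over all probe sets was between 3.59 and 3.73 on the 6 arrays. Each array correlated with the others at a mean r of 0.979 to 0.986 over all probe sets, except control replicate 3 at 0.964. The targeted gene sbb was read by probe set 1635211_at at 5.33, 4.45 and 4.61 in brakeless embryos and at 6.01, 6.71 and 6.06 in control embryos. The groups did not overlap there, but the difference of -1.46 had a limma adjusted p of 0.320, and the other 2 sbb probe sets overlapped between the groups. By mean level these 2 stood at percentiles 56.1 and 49.3 of all probe sets, and 1635211_at at 64.8.

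No probe set of the pathway passed the test between brakeless and control embryos. Limma called 0 of the 8 at an adjusted p under 0.05, whereas 0.139% of all probe sets were called. At an unadjusted p under 0.05, 1 of the 8 remained, that of trk, against 4.78% of all probe sets. None of the 8 remained at that level with eBayes trend and robust, after quantile normalization again, or without brakeless replicate 2, where the unadjusted p of trk was 0.142, 0.150 and 0.0520. Without brakeless replicate 3 there were 2, tsl (limma unadjusted p = 0.0250) and trk (0.0466), with an adjusted p of 0.988 each. The trk probe set was the single one whose groups did not overlap over the 6 arrays, with all brakeless arrays above all control arrays. Over all probe sets, 4.68% did not overlap in this direction and 5.40% in the other. The log2 differences, brakeless minus control, were positive for 6 probe sets and negative for 2. Their median was 0.18, against 0.002 over all probe sets. It was -0.03 without brakeless replicate 1, -0.04 without control replicate 1, 0.35 without brakeless replicate 3 and 0.44 without control replicate 2. The 95% intervals of 5 of the 8 differences lay within a 2-fold change in either direction, as did those of 80.0% of all probe sets. The remaining 3 intervals, those of csw, Sos and the cic probe set 1635909_at, allowed larger changes.

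**Figure D1:**
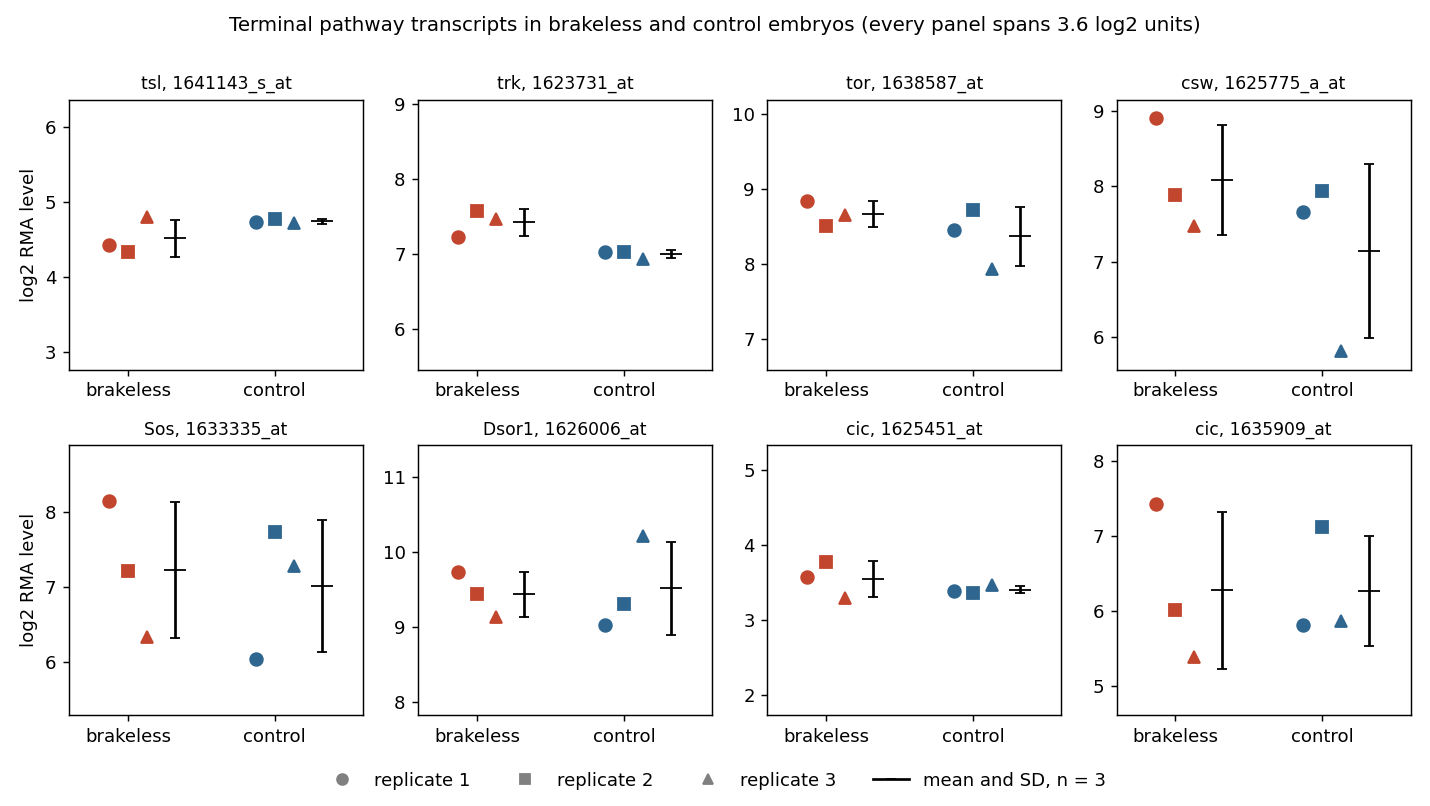
Log2 RMA level (vertical axis) of each probe set of the pathway on the brakeless (red, left) and control (blue, right) arrays, with a marker shape for each replicate and bars for the mean and SD of 3 arrays. Only in trk do the brakeless arrays, from 7.22 upwards, all lie above the control arrays, which reach 7.03, while csw, Sos and the cic probe set 1635909_at spread over more than 2 log2 units.

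On the ligand side, tsl and trk differed in opposite directions. The gene trk (2L, 10271443 to 10272324 in the RefSeq Release 6 plus ISO1 MT assembly) encodes Trunk, the cystine-knot ligand of Torso, and is transcribed in the maternal germ line. Probe set 1623731_at read 7.22, 7.58 and 7.47 in brakeless embryos, against 7.03, 7.03 and 6.94 in control embryos. The 3 control arrays were within 0.10 of each other, and the lowest brakeless array stood above the highest of them. Mean levels (± SD, n = 3 arrays a group) were 7.42 ± 0.18 in brakeless embryos and 6.999 ± 0.055 in controls. The trk level was thus 1.34-fold higher in brakeless embryos, with a log2 difference of 0.42 (SE 0.13) whose 95% interval ran from 0.12 to 0.73. Among all probe sets it ranked 374th by p, and it did not pass limma's test (unadjusted p = 0.0146, adjusted p = 0.730). Leaving out each array in turn gave differences between 0.35 and 0.52.

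The gene tsl (3R, 21778114 to 21782536) encodes Torso-like, a secreted protein with a membrane attack complex and perforin domain. Probe set 1641143_s_at read 4.43, 4.33 and 4.80 in brakeless embryos, against 4.73, 4.77 and 4.71 in control embryos. Brakeless replicates 1 and 2 lay below every control array, and brakeless replicate 3 lay above them all. The difference of -0.22 (SE 0.15, interval -0.58 to 0.13) did not pass (limma adjusted p = 0.998). Omitting brakeless replicate 2 gave -0.13 and omitting brakeless replicate 3 gave -0.36. In the mother tsl is known as a gene of the somatic follicle cells, not of the germ line that was clonal here. Genes of the eggshell and its follicle cells, of which 12 of 13 listed were measured, averaged 3.67 to 3.83 over the brakeless arrays and 3.61 to 3.93 over the control arrays. These averages were near the median level of all probe sets, 3.67, and such dim readings say little about follicle-cell RNA. The ranges of the groups overlapped, and the part of these genes in the tsl values was not tested.

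Among 7 other genes of the ligand side, 4 were measured with 6 probe sets, of which 4 differences were positive, 2 negative and none passed limma's test (0 of 6 also at an unadjusted p under 0.05). They were Fur2, a furin protease, fs(1)N and clos, eggshell-linked factors needed for terminal signalling, and Ptth, the ligand of Torso in the larval prothoracic gland. The greatest positive difference was 0.29 (SE 0.26) for clos on probe set 1627229_at, which read 6.82, 6.34 and 5.82 in brakeless embryos and 5.83, 6.19 and 6.10 in control embryos. This clos difference was 0.04 without brakeless replicate 1 and 0.54 without brakeless replicate 3. The other 2 clos probe sets differed by 0.24 and 0.18. The value of 0.18 came from 1640882_at, a dim probe set at percentile 18.8 of all probe sets by mean level. The greatest negative difference was -0.23 (SE 0.92) for fs(1)N, which had 9.81, 9.24 and 6.79 in brakeless embryos and 7.55, 9.34 and 9.64 in control embryos. Both groups therefore held high and low arrays of fs(1)N, and its interval ran from -2.48 to 2.03. Its difference was -0.87 without control replicate 1 and 0.68 without brakeless replicate 3.

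The receptor gene tor (2R, 7705183 to 7709184) lies on the arm that carries sbb and the FRT site. Probe set 1638587_at read 8.85, 8.51 and 8.66 in brakeless embryos, against 8.45, 8.72 and 7.95 in control embryos. The groups overlapped through control replicate 2, and control replicate 3 was the lowest of the 6 arrays. Mean levels were 8.67 ± 0.17 in brakeless embryos and 8.37 ± 0.39 in controls (SD, n = 3 arrays a group). The difference was 0.30 (SE 0.22, interval -0.24 to 0.84) and did not pass (limma adjusted p = 0.998). The tor difference was 0.09 without control replicate 3 and 0.47 without control replicate 2. The interval allowed a tor level in brakeless embryos between 0.849 and 1.78 times that of control embryos.

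The genes whose profile over the 6 arrays was most like that of tor were Mgtor, sina and kuk. Likeness was the root mean square difference of the log2 values after each gene's own mean was subtracted, among 7481 other genes with a mean above the median of all probe sets. It was 0.054 for Mgtor, 0.067 for sina and 0.069 for kuk, where the median gene stood at 0.44. As for tor, control replicate 3 was the lowest array of each, at 7.76 for Mgtor, 5.84 for sina and 12.04 for kuk. None of the 3 passed limma's test (adjusted p = 0.998 each). Among the measured genes of the pathway, trk had the smallest such difference from tor, at 0.289. That is not small beside the SD of tor over the 6 arrays, 0.317. The deviations of tor and trk from their own means had opposite signs on brakeless replicate 2 (-0.014 and 0.37) and control replicate 2 (0.20 and -0.18). On the other arrays the signs were the same.

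Directly downstream of the receptor, csw had the greatest difference of the pathway and the greatest spread. It lies on X (2094234 to 2115701) and encodes Corkscrew, the SHP2 tyrosine phosphatase that binds activated Torso. Probe set 1625775_a_at read 8.91, 7.89 and 7.48 in brakeless embryos, against 7.66, 7.94 and 5.81 in control embryos. Brakeless replicate 1 was the highest array and control replicate 3 the lowest, 3.10 apart, and the other 4 arrays lay between 7.48 and 7.94 with the groups mixed. Mean levels were 8.09 ± 0.74 in brakeless embryos and 7.14 ± 1.16 in controls (SD, n = 3 arrays a group). The difference was 0.95 (SE 0.65, interval -0.64 to 2.54) and did not pass (limma adjusted p = 0.998). It shrank to 0.29 without control replicate 3 and to 0.54 without brakeless replicate 1, and it was at most 1.36, without control replicate 2.

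The csw probe set varied most over the 6 arrays among the brightest probe sets of the pathway's genes, with an SD of 1.01. The genes with the most similar profile were CG2926 (0.102), CG11902 (0.131) and Lap1 (0.147), each value being the root mean square difference defined above, for which the median gene stood at 0.989. Control replicate 3 was far the lowest array of each. CG2926 read 4.92 there and 6.72 to 7.97 on the other 5 arrays. CG11902 read 5.02 there and 6.49 to 7.90 on the others. Lap1 read 4.95 there, with its next lowest array at 7.001.

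Sos (2L, 13813816 to 13819824) encodes the exchange factor that loads Ras with GTP. Probe set 1633335_at read 8.14, 7.22 and 6.34 in brakeless embryos, against 6.04, 7.74 and 7.28 in control embryos. Each group spanned at least 1.70 log2 units, and the 2 ranges overlapped over most of their length. The difference was 0.21 (SE 0.60, interval -1.25 to 1.67, limma adjusted p = 0.998). Its sign was set by single arrays: omitting brakeless replicate 1 gave -0.24 and omitting control replicate 1 gave -0.28, while omitting each of the other arrays gave 0.22 to 0.66.

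Dsor1 (X, 9247342 to 9250037), the MAP kinase kinase gene, was the one member for which control replicate 3 was the highest array. Probe set 1626006_at read 9.74, 9.44 and 9.14 in brakeless embryos, against 9.03, 9.31 and 10.22 in control embryos. The difference was -0.08 (SE 0.34, interval -0.90 to 0.74, limma adjusted p = 0.998). Omitting 1 array moved it between -0.32, without control replicate 1, and 0.27, without control replicate 3.

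Of 15 other genes that act between the receptor and the MAP kinase, 12 were measured with 13 probe sets. Their differences were positive in 6 and negative in 7, and limma called none (0 of 13 also at an unadjusted p under 0.05). The median was -0.05. The greatest positive difference was that of drk, the SH2 and SH3 adaptor that links receptors to Sos, at 0.44 (SE 0.87). It read 5.58, 5.63 and 6.54 in brakeless embryos and 7.14, 5.67 and 3.63 in control embryos, so that control arrays were both the highest and the lowest. The drk difference was -0.49 without control replicate 3 and 1.27 without control replicate 1. The greatest negative difference was that of 14-3-3zeta, a phosphoserine-binding partner of Raf, at -0.65 (SE 0.71). Its probe set was dim, at percentile 48.2 of all probe sets by mean level. Its arrays stood at 2.63, 2.91 and 4.25 in brakeless embryos and at 4.09, 5.03 and 2.62 in control embryos, and its difference was -1.30 without control replicate 3 and -0.10 without control replicate 2. The symbol-based rule left out phl, the Raf kinase gene, Gap1 and Src42A, which were not analysed here.

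At the nuclear end, cic (3R, 20252770 to 20303942) encodes Capicua, the HMG-box repressor that MAP kinase inactivates. Probe set 1635909_at read 7.43, 6.01 and 5.39 in brakeless embryos, against 5.82, 7.12 and 5.87 in control embryos. The highest and the lowest array were both brakeless, and the mean levels nearly coincided, at 6.28 ± 1.04 in brakeless embryos and 6.27 ± 0.74 in controls (SD, n = 3 arrays a group). The difference was 0.01 (SE 0.61, limma adjusted p = 0.998), with an interval from -1.47 to 1.49 that allows for large changes. After quantile normalization was applied again, the difference was -0.07, and omitting 1 array moved it between -0.57, without brakeless replicate 1, and 0.45, without brakeless replicate 3. The other probe set, 1625451_at, read 3.58, 3.77 and 3.30 in brakeless embryos and 3.39, 3.37 and 3.47 in control embryos. Its difference was 0.14 (SE 0.14, limma adjusted p = 0.998), with values of 0.03 without brakeless replicate 2 and 0.27 without brakeless replicate 3. The 2 probe sets did not follow each other: control replicate 2 was the second highest array of 1635909_at and the second lowest of 1625451_at. By mean level, 1625451_at stood at percentile 45.3 of all probe sets. Its 6 arrays spanned 0.48, so the ranking within it rests on small differences.

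Nuclear partners and targets of Capicua were represented by 6 genes with 9 probe sets, of which 3 differences were positive and 6 negative. Limma called none, and none had an unadjusted p under 0.05. The median was -0.17. The target tll, which specifies the posterior terminus and the head, read 6.62, 6.44 and 6.59 in brakeless embryos and 6.61, 7.20 and 6.99 in control embryos. Control replicate 1 and brakeless replicate 1 stood at almost the same tll level, and the difference was -0.39 (SE 0.17, limma adjusted p = 0.998, unadjusted p = 0.0650). It was -0.25 without control replicate 2 and -0.55 without control replicate 1. The target hkb, which sets the endoderm primordia, read 7.03, 6.92 and 7.57 in brakeless embryos and 7.65, 7.81 and 6.87 in control embryos. The hkb difference was -0.27 (SE 0.30), with a limma adjusted p of 0.998. Control replicate 3 was the lowest array of hkb, and the difference was -0.56 without it and -0.09 without control replicate 2. The greatest positive difference was that of gro, the corepressor Groucho that Capicua works with, at 0.40 (SE 0.60), and it was -0.24 without control replicate 3 and 0.94 without control replicate 2. The greatest negative one was that of mnb, a kinase known to act on Capicua, at -0.49 (SE 0.37) on probe set 1638476_s_at, with -0.15 without control replicate 2 and -0.82 without control replicate 3. The other 3 mnb probe sets differed by 0.12, -0.11 and 0.25.

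**Figure D2:**
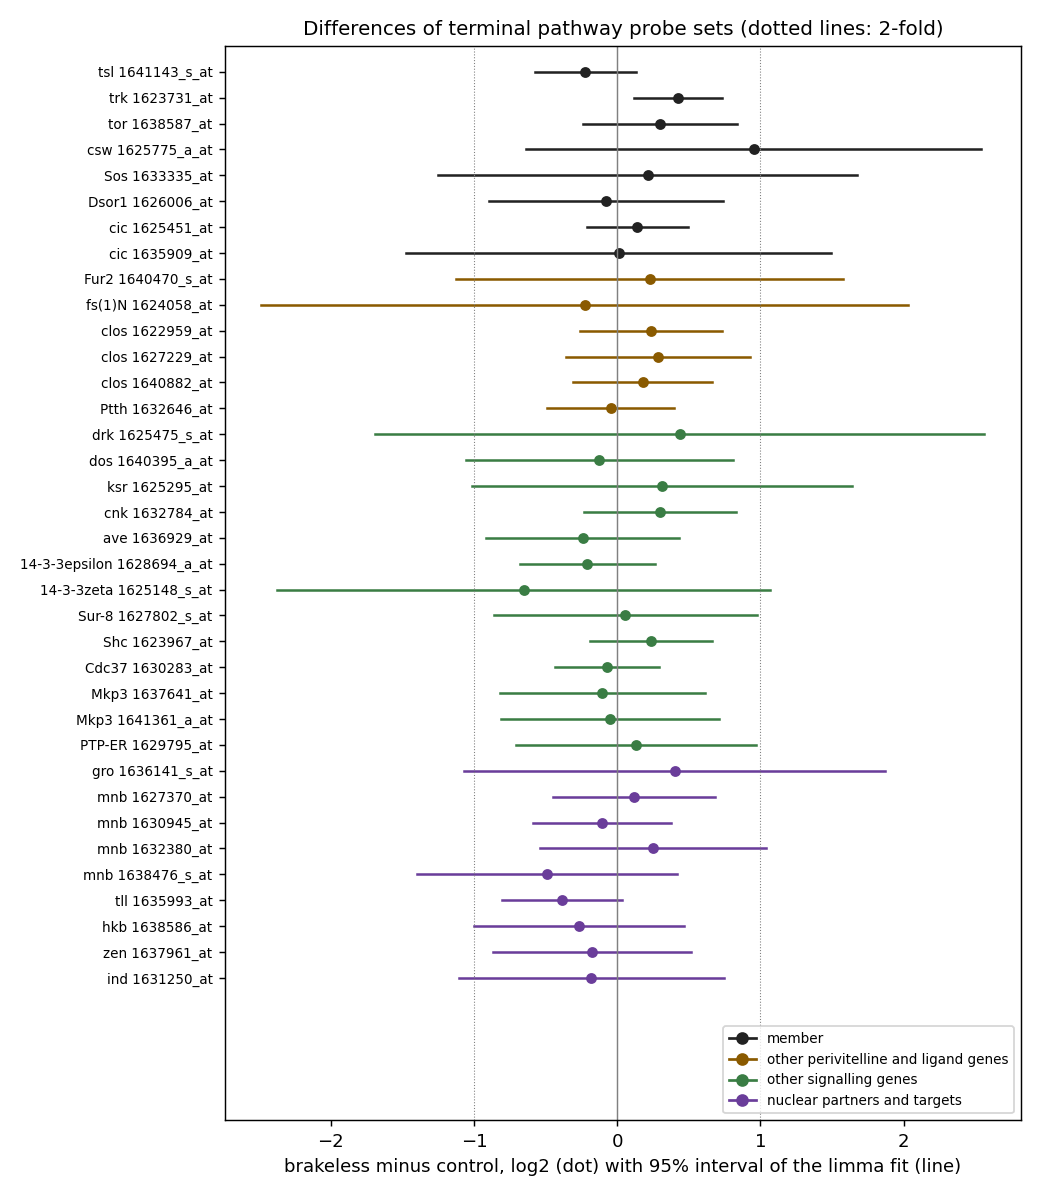
Log2 difference, brakeless minus control (horizontal axis), of each probe set of the pathway (black) and of the other ligand-side, signalling and nuclear genes (colours), with lines for the 95% interval of the limma fit and dotted lines at a 2-fold change. The trk interval, 0.12 to 0.73, is the single one of the 36 drawn that does not cross 0, and no probe set passed the test after adjustment.

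Except for trk, most of the variation of each probe set of the pathway lay within the groups, as it did for the median probe set. The share of the sum of squares over the 6 arrays that lay between brakeless and control was 78.7% for trk, 37.7% for tsl, 26.8% for tor and 26.5% for csw. It was 19.8% for the cic probe set 1625451_at, 2.08% for Sos, 0.954% for Dsor1 and 0.00435% for the cic probe set 1635909_at. Over all probe sets the median share was 12.04% and the 90th percentile 51.4%. The SD within groups was 0.972 for csw, 0.904 for the cic probe set 1635909_at and 0.892 for Sos, each at or above percentile 95.6 of all probe sets. For trk it was 0.135, at percentile 27.3.

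Sos and the cic probe set 1635909_at moved together from array to array. On both, brakeless replicate 1 and control replicate 2 were the 2 highest arrays, with deviations from the 6-array mean of 1.02 and 0.61 for Sos and of 1.16 and 0.85 for cic. Brakeless replicate 3 and control replicate 1 were the 2 lowest, at -0.79 and -1.09 for Sos and at -0.88 and -0.46 for cic. The scaffold gene ksr, which holds Raf, MAP kinase kinase and MAP kinase together, had the same 2 highest arrays, at 8.68 and 8.04, and the same 2 lowest, at 6.90 and 6.67. These genes were picked for this description after their values were seen. In all 3 genes the high and the low arrays were spread over both groups.

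Markers of embryonic age varied over the same arrays, and their part in the values above was not tested. The early zygotic list shares the gene zen with the nuclear genes above. Early zygotic genes, of which 10 of 12 listed were measured, averaged 7.27 to 7.87 in brakeless and 7.40 to 7.81 in control embryos. These averages hide differences in both directions, 4 positive and 6 negative. The greatest were -1.03 for Sry-alpha (limma adjusted p = 0.114), 0.77 for prd and -0.63 for nullo. The groups did not overlap for 2 of the 10 probe sets, Sry-alpha and nullo, both lower in brakeless embryos, against 5.40% of all probe sets. Maternal transcripts that the embryo clears, 8 of 9 measured, averaged 10.2 to 10.6 in brakeless and 9.82 to 10.4 in control embryos. Of their 11 probe sets, 8 had positive differences and 3 negative ones, with a median of 0.51. The positive ones included several probe sets each of osk and bcd, so they are not separate genes. The negative ones were those of png (-0.22), gnu (-0.30) and plu (-0.34). Brakeless replicate 1 was highest in this list (a deviation of 0.37) and control replicate 3 lowest (-0.45), as they were for csw and tor. Muscle genes of older embryos, 7 of 10 measured, averaged 3.20 to 4.69 in brakeless and 3.84 to 5.31 in control embryos. All 10 of their probe sets had negative differences, with a median of -0.66, which omitting 1 array moved between -1.06 (without control replicate 3) and -0.26 (without control replicate 2). The median of the cleared maternal list moved between 0.23 (without brakeless replicate 1) and 0.75 (without control replicate 2). Muscle genes were lowest in brakeless replicate 1 (-1.07) and highest in control replicate 2 (1.03), which were the 2 highest arrays of Sos and cic. Neuron genes, 4 of 5 measured, averaged 3.50 to 3.84 in brakeless and 3.55 to 3.91 in control embryos. No probe set of these lists or of the eggshell list passed limma's test over all probe sets. In the early zygotic list 3 of the 10 had an unadjusted p under 0.05, against 4.78% of all probe sets.

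**Figure D3:**
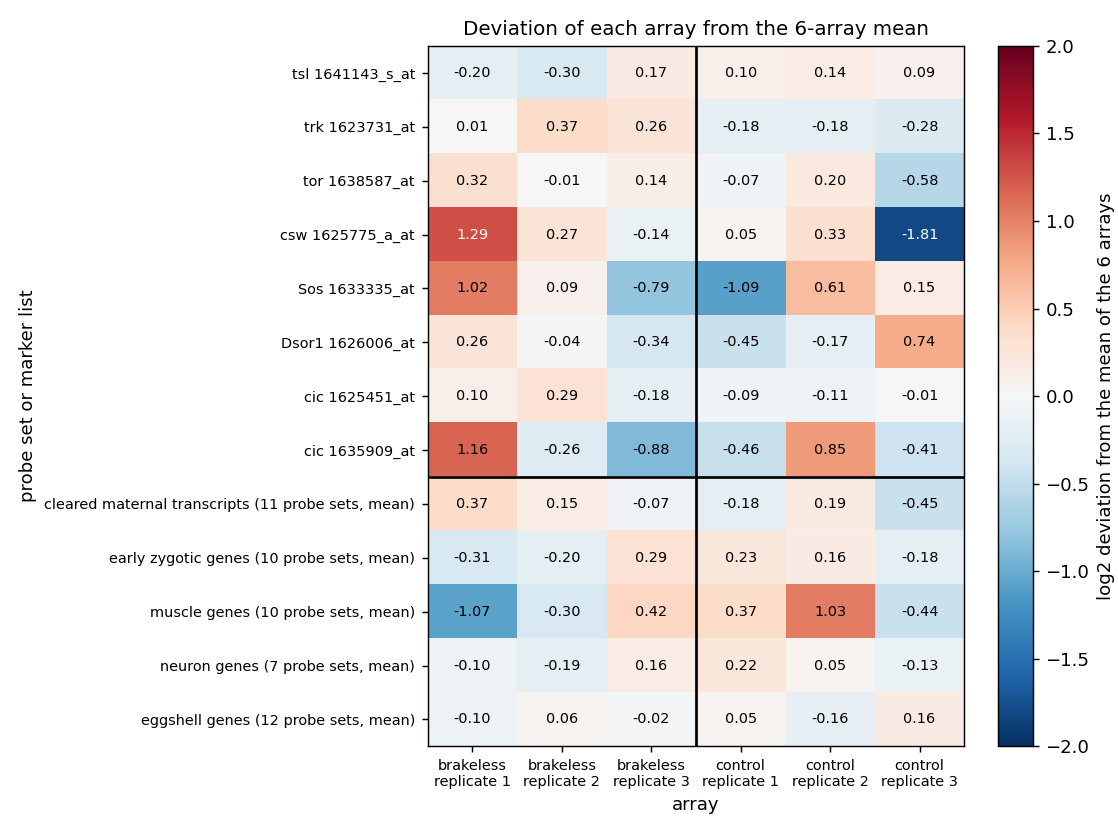
Deviation of each array (columns, brakeless left and control right) from the mean of the 6 arrays, in log2 units, for every probe set of the pathway and for the mean of 5 marker lists (rows); red is above and blue below the mean. The darkest cell is csw in control replicate 3, at -1.81, and only the trk row keeps 1 sign in each group.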

How the data were processed

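Total RNA of pooled dechorionated embryos was hybridized as biotin-labelled target to 1-colour Affymetrix arrays. The deposited log2 values, 1 per probe set, were made by the authors with RMA, per the submitters' processing notes; its settings and version were not stated in the labels. Values ran from 1.98 to 14.35. RMA hides differences in total RNA per embryo. Of 18952 probe sets, 183 Affymetrix controls were left out. The platform annotation gave 13647 probe sets 1 symbol, 402 several and 4720 none, and all 8 probe sets of the pathway matched RefSeq by gene number.

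All 6 arrays were fitted in limma 3.58.1 (R 4.3.3; lmFit and eBayes, no covariate, two-sided, Benjamini-Hochberg over 18769 probe sets, threshold 0.05). This step was also run on simulated data with independent noise for each probe set, and its outcome is not given here. Such data do not hold shifts shared by many probe sets of an array. Replicate numbers come from the titles; the description of control replicate 3 carries another number. Separate parents or cages are not stated, so p-values measure the spread between these pools. Arrays have no read depth, and their number limits the precision.

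The members, the lists of other pathway genes and the age and eggshell markers were chosen with earlier results of these data known, so no list has a test of its own. Named were all member probe sets, tll and hkb, the greatest positive and negative difference of each pathway list, and the 3 genes most like tor and like the most variable member; ksr and other genes were named after their values were seen. No sequences were used here. Figures were drawn with matplotlib 3.10.9.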

Additional observations from a re-analysis of the deposited data

How the results depend on the processing

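The count of 0 probe sets of the pathway past limma's threshold, and of 0 among those of the other pathway genes, held under all 12 alternatives; the filter on dim probe sets left 27 of those 28 to test. Of 96 refitted differences of the pathway's probe sets, 86 kept their sign and 10 turned it, all of them for Sos, Dsor1 and the cic probe set 1635909_at and all without a call. With array weights Dsor1 read 0.15 and cic -0.066, and after quantile normalization again cic read -0.075. Leaving out 1 array gave -0.28 to 0.66 for Sos, -0.32 to 0.27 for Dsor1 and -0.57 to 0.45 for cic 1635909_at. The median difference of the 8 probe sets ran from -0.042 (without control replicate 1) to 0.44 (without control replicate 2). The sign of the trk difference held throughout, with values of 0.33 to 0.52 and limma adjusted p of 0.393 to 0.9997, but its unadjusted p was 0.0520 to 0.150 under 3 alternatives. Over all probe sets limma called 26, but 46 with trend and robust, 74 with array weights, and 0 to 33 with 1 array left out. The causes were not tested. With the replicate number as a block it called 0 (678 at an unadjusted p under 0.05). The labels do not say whether arrays of the same number shared a batch. Their deviations from the group means correlated at -0.40, -0.23 and -0.32. Deviations from a group mean sum to 0 within the group, so these values cannot decide whether a batch was shared. The 3 arrays a group limit all intervals.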
